A study of Mus musculus with 1 sample.

Results

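Which cells of an MC38 tumor carried the transcripts of the TGF-β ligands, and which carried those of the proteins that store and release them, was examined in the control tumors of a study on Atp6v0a1, a subunit of the vacuolar proton pump, and TGF-β1 in colorectal cancer. The genes were a list of 9 chosen by function, out of 32285 genes in the count matrix: the 3 ligands Tgfb1, Tgfb2 and Tgfb3, the 4 latent TGF-β binding proteins Ltbp1, Ltbp2, Ltbp3 and Ltbp4, and Lrrc32 and Itgb8. The material was MC38, a mouse colon adenocarcinoma line grown under the skin of C57BL/6J mice, and 5 tumors labelled WT were pooled into 1 droplet library. No knockdown tumor was analysed here, no cell could be assigned to a tumor, and there were no replicates. Every interval below therefore covers counting error only, and a ratio compares groups of cells in 1 library.

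The library held 5307 called cells with 511 to 231902 UMIs (unique molecular identifiers, each counting 1 captured transcript), and 4443 cells were kept after quality control, with a median of 10434 UMIs. Clusters were named from marker genes: 1741 tumor-like cells, 1784 myeloid-like cells, 164 T and NK-like cells, 33 cells like cancer-associated fibroblasts (CAF-like), 26 endothelial-like cells, 43 granulocyte-like cells kept apart from the myeloid-like cells, and unnamed cells. The unnamed cells were 981 in all with a median of 1236 UMIs, a number that includes unnamed cells within the tumor-like, myeloid-like and T and NK-like totals. The tumor-like cells were split by the collagen gene Col3a1 into a Col3a1-high cluster of 378 cells and 1326 Col3a1-low cells, of which 553 were cycling, and 37 tumor-like cells that also carried myeloid genes entered neither. The myeloid-like cells comprised 1287 macrophage-like, 207 monocyte-like, 46 DC-like (dendritic) and 244 unnamed cells. Among the macrophage-like cells 112 formed an Arg1 state, 131 a Cxcl9 state and 181 a proliferating cluster, and 863 were left as other macrophage-like cells. The labels call the cells epithelial, but the defining epithelial transcripts were at or near 0 in the tumor-like cells (Krt18 0 UMIs, Epcam 0.013 and Cdh1 0.17 UMIs per 1000000), whereas vimentin, a mesenchymal filament gene, stood at 3300 per 1000000.

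Levels are given as CPM, the UMIs of a gene per 1000000 UMIs summed over all cells of a group, with the exact Poisson 95% interval. A UMI counts a transcript once at its 3′ end, so these levels do not grow with gene length. Depth differed between the groups, with a median of 40560 UMIs per cell in tumor-like, 8150 in myeloid-like and 4074.5 in T and NK-like cells. Tumor RNA was also found outside tumor cells: the summed level of Shisal2b and Rhox5, which mark MC38 cells here, was 7.07% of the tumor level in myeloid-like cells, 9.41% in T and NK-like cells, 20.7% in CAF-like cells and 5.04% in endothelial-like cells. The same percentage of a gene's tumor level is quoted below as the tumor-RNA amount where it bears on a value.

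TGF-β is made as a precursor that the protease furin cuts into the mature cytokine and a propeptide, which stays wrapped around it and keeps it latent. In most cells the latent complex is bound by an LTBP and laid down on the fibrillin and fibronectin matrix, while LRRC32 (also called GARP) holds it on the surface of regulatory T cells and platelets and NRROS does so on macrophages and microglia. Integrins that contain the αv chain, among them αvβ8 (Itgav with Itgb8) and αvβ6, release TGF-β1 and TGF-β3 by binding an Arg-Gly-Asp motif in the propeptide. The released cytokine acts through TGFBR2 and TGFBR1 and restrains cytotoxic T cells.

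In the GRCm38 annotation of the mouse genome Tgfb1 lies at chr7:25687002-25705077, Tgfb2 at chr1:186622792-186705989 and Tgfb3 at chr12:86056745-86079041. The binding protein genes are Ltbp1 at chr17:75005568-75392512, Ltbp2 at chr12:84783212-84876532, Ltbp3 at chr19:5740904-5758532 and Ltbp4 at chr7:27305136-27337692. Lrrc32 lies at chr7:98489283-98502181 and Itgb8 at chr12:119158022-119238802. All 9 are protein-coding.

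The integrin motif is the sequence feature that divides the ligands. The coding sequence around it is shown because it is the site through which Itgb8 acts, with the in-frame Arg-Gly-Asp codons in capitals:

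Tgfb1: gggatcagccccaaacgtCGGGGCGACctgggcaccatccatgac

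Tgfb3: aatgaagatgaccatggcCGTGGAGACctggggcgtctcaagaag

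The Tgfb1 site lies on the plus strand of chromosome 7 (GRCm38), where the bases shown span chr7:25696995-25697168 with an intron between them, and the motif is codon 244 of 390, in exon 5 of 7. The Tgfb3 site lies on the minus strand within exon 5 of 7 at chr12:86062147-86062191, at codon 261 of 412. Of the 45 bases shown, 19 were the same in both when aligned on the motif. No in-frame match was found in the Tgfb2 coding sequence or in those of the other 6 genes, and 1569 of 21782 annotated mouse coding sequences (7.20%) held one. The transcripts are those of the GENCODE annotation of GRCm38, and a match is a run of letters, not a tested site.

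Tgfb1 had the most UMIs of the 9 genes and was detected in every cell group. Tumor-like cells had 57.3 CPM (55.6 to 59.0, 4360 UMIs) and myeloid-like cells had 178 CPM (172 to 185, 2879 UMIs), so myeloid-like cells held 3.12-fold more per UMI (2.97 to 3.27). The tumor-RNA amount in myeloid-like cells was 4.05 CPM. Tgfb1 was the 1 gene of the 9 at least 2-fold lower in tumor-like than in myeloid-like cells, a call that 21.7% of the 13735 genes tested received.

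Within the tumor-like cells Tgfb1 was close to even. The level was 50.02 CPM (45.8 to 54.5) in Col3a1-high, 56.7 CPM in cycling Col3a1-low and 59.6 CPM in non-cycling Col3a1-low cells. The ratio of Col3a1-high to Col3a1-low cells was 0.861 (0.784 to 0.943), and it turned to 1.04 when the clustering was repeated with another seed and to 1.21 when cells were thinned to 1000 UMIs, so it had no stable direction.

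Among the leukocyte groups, granulocyte-like cells (2 UMIs) left aside, Tgfb1 ran from 124 CPM (93.1 to 163) in DC-like cells to 231 CPM in monocyte-like cells. Monocyte-like cells, the circulating precursors of macrophages, stood first with 231 CPM (204 to 260), 1.31-fold above macrophage-like cells (1.15 to 1.48). The macrophage states spanned 170 CPM in the Cxcl9 state to 182 CPM in the Arg1 state, a ratio of 1.07 for Arg1 to Cxcl9 (0.872 to 1.31). Over the other settings this ratio ranged from 1.08 to 1.58, so its size was not stable. A single Cxcl9-state cell gave 15 of the 168 UMIs, and the level was 158 CPM without it. T and NK-like cells held 175 CPM (147 to 206, 140 UMIs), with 192 CPM in 41 Treg-like cells and 183 CPM in the 75 cells led by granzyme genes, and their ratio to myeloid-like cells was 0.979 (0.820 to 1.16). Only 19 of all 164 T and NK-like cells had a Foxp3 UMI, so the Treg-like cluster also held cells without one. Its leading genes included Il13, Csf2 and Areg beside Foxp3, and whether it mixed cell types was not tested. Tgfb1 was the only one of the 9 genes with enough UMIs to test between Treg-like and granzyme-led cells, and it was called neither higher (13% of all tested) nor lower (9.61%). Split by single transcripts, the 13 T and NK-like cells with a UMI of the NK receptor Ncr1 held 280 CPM (209 to 368), and the 58 with a Cd8a but no Foxp3 UMI held 125 CPM (90.1 to 168). The former were deeper, with a median of 15876 against 5672 UMIs.

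In the order of levels, no step between neighbours from monocyte-like cells through Treg-like, granzyme-led, Arg1-state, other, proliferating, endothelial-like (173 CPM, 15 UMIs) and Cxcl9-state cells had an interval that left out 1. The step from the Cxcl9 state to DC-like cells (124 CPM) just did, at 1.37 (1.001 to 1.90), and so did the step from CAF-like cells (87.5 CPM) to non-cycling tumor-like cells, at 1.47 (1.08 to 1.95). Steps between sorted neighbours, some with few UMIs (30 in Treg-like cells), cannot show that groups further apart were even. Monocyte-like cells were above macrophage-like cells as a whole, at 1.31 (1.15 to 1.48). Of the 49 CAF-like Tgfb1 UMIs 14 came from 1 cell, and the level without that cell was 66.3 CPM. The 7 CAF-like cells with a UMI of Rgs5, a pericyte marker, held 198 CPM of Tgfb1 (140 to 273) and the other 26 held 32.2 CPM (16.6 to 56.2).

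Over the library as a whole the order was the reverse. Tumor-like cells supplied 57.9% of all 7527 Tgfb1 UMIs (56.8 to 59.0%, exact binomial) and myeloid-like cells 38.2%, against 80.1% and 17.0% of the UMIs of all genes. T and NK-like cells supplied 1.86%. As deposited, 75.5% of tumor-like and 64.9% of myeloid-like cells had a Tgfb1 UMI. After thinning each cell to 1000 UMIs the shares were 4.62% of 1730 cells (3.68 to 5.72%) and 17.3% of 1761 cells (15.5 to 19.1%), with 11 and 23 shallower cells left out. No group lacked Tgfb1, so no background share could be read for it beyond the tumor-RNA amount above.

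**Figure D1:**
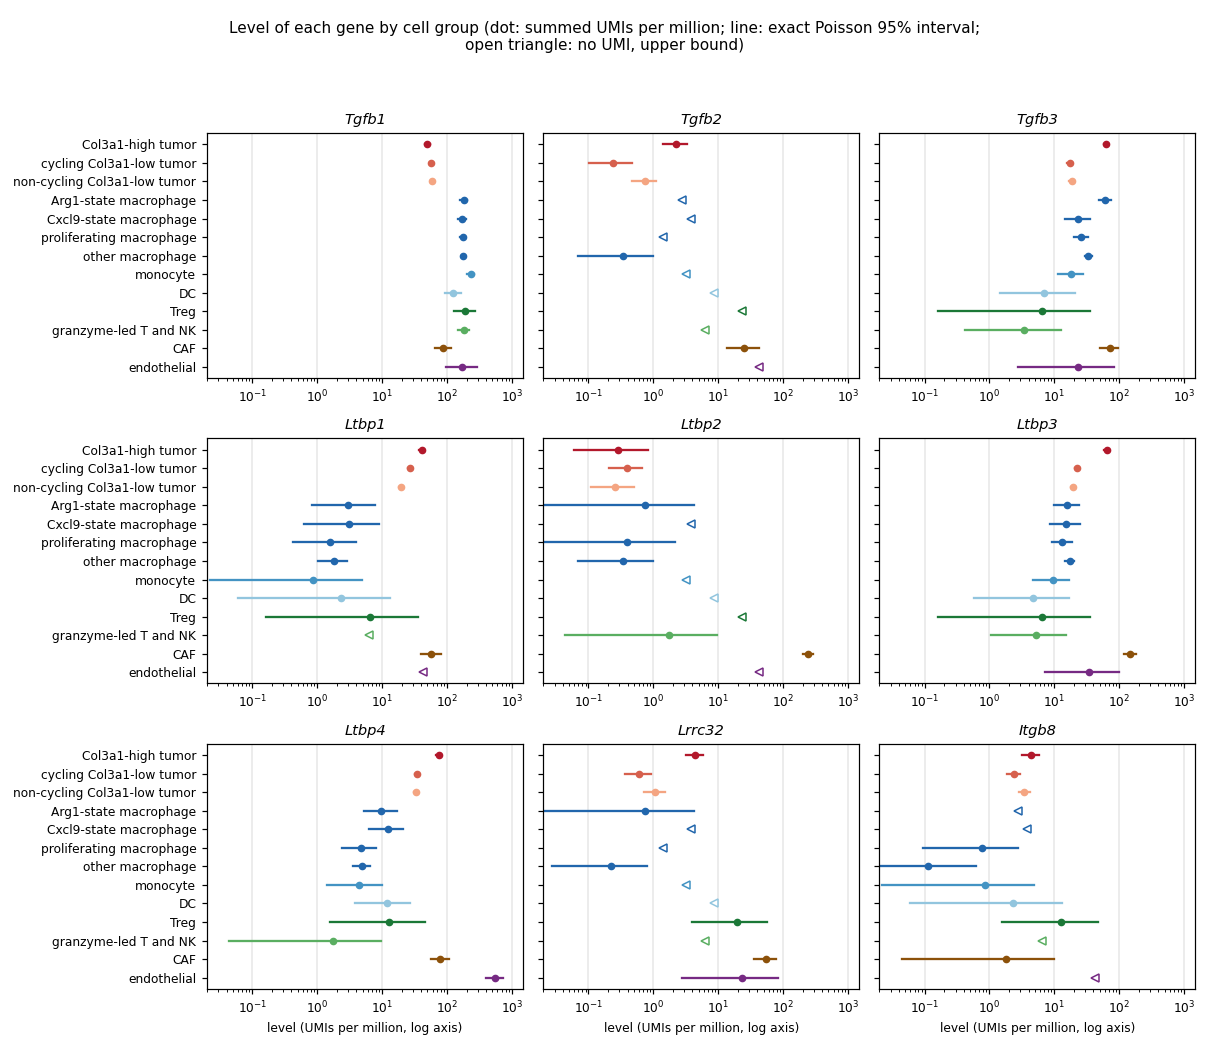
Level of each of the 9 genes in 13 cell groups, as CPM on a log axis. Dots are the group levels, lines are exact Poisson 95% intervals, and open triangles mark the upper bound where no UMI was counted. Tgfb1 sits at 50.02 to 59.6 CPM in the tumor-like groups and at 124 to 231 CPM in the leukocyte groups, while Ltbp2 stands above 2 CPM only in CAF-like cells.

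Tgfb3 followed another pattern, uneven within both the tumor-like and the myeloid-like cells. It stood at 62.3 CPM (57.6 to 67.3, 653 UMIs) in Col3a1-high tumor-like cells against 17.8 CPM (16.8 to 18.9, 1152 UMIs) in Col3a1-low cells, a ratio of 3.49 (3.17 to 3.85). Cycling and non-cycling Col3a1-low cells were near each other, at 17.1 and 18.6 CPM. The non-cycling cells were themselves uneven, with 27.4 CPM (24.5 to 30.5) in a subcluster of 328 cells and 13.6 and 12.5 CPM in the others. That subcluster also had more Col3a1 (1308 CPM) than the others (578 and 390 CPM), though less than the Col3a1-high cells (3294 CPM). The Col3a1-high cells were shallower, with a median of 23449 UMIs against 47168.5, and within each tumor-like group the shallower cells had the higher Tgfb3 level, as in the Col3a1-high cluster with 101 CPM in the shallower and 51.3 CPM in the deeper cells. Among cells of 20000 to 40000 UMIs only (113 Col3a1-high and 302 Col3a1-low cells, medians 29069 and 30573) the ratio was 3.18 (2.65 to 3.81), so the difference was also present between cells of like depth.

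In the macrophage-like cells Tgfb3 reached 60.8 CPM (48.3 to 75.6, 81 UMIs in 37 of 112 cells) in the Arg1 state, whose leading genes include Mmp12, Arg2 and Hmox1. It was 23.3 CPM (14.8 to 35.0, 23 UMIs) in the interferon-responsive Cxcl9 state, a ratio of 2.61 (1.62 to 4.34). The tumor-RNA amounts were 1.35 and 2.26 CPM. Tgfb3 was the 1 gene called higher in the Arg1 state among the 4 of the 9 that could be tested, where 6.36% of all tested genes were, and none was called lower (17%). The call did not hold under every setting. The ratio was 1.59 (1.06 to 2.45) with a limit of 10% mitochondrial UMIs, 1.65 with no such limit and 1.96 with 3000 variable genes, all under 2-fold, and after thinning (2.09) too few UMIs were left to call it. The highest myeloid-like level was that of the 244 unnamed cells, with 80.2 CPM (60.7 to 104, 57 UMIs), where the tumor-RNA amount was 7.02 CPM.

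The other macrophage-like cells were uneven for Tgfb3 but not for Tgfb1. Of their 2 main subclusters, 1 led by the immediate-early and chemokine genes Fosb, Cxcl2 and Nfkbiz (392 cells) held 49.7 CPM of Tgfb3 (42.8 to 57.4), and the other (449 cells) held 22.6 CPM (18.6 to 27.1). The second-to-first ratio was 0.454 (0.357 to 0.577), and Tgfb3 was the only one of 4 tested genes called lower (2.48% of all tested), with none called higher (0.763%). Tgfb1 was 173 and 180 CPM in the same subclusters.

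Lymphoid cells held almost no Tgfb3. T and NK-like cells had 4 UMIs (4.99 CPM, 1.36 to 12.8), with a tumor-RNA amount of 2.28 CPM inside that interval, and their ratio to myeloid-like cells was 0.146 (0.0398 to 0.377). Tgfb3 was the 1 gene called lower there of 5 tested (15.7% of all tested genes), and none was called higher (13.5%). Monocyte-like cells, with 18.2 CPM, were below macrophage-like cells, at a ratio of 0.536 (0.329 to 0.829), the reverse of Tgfb1. CAF-like cells had 71.5 CPM (51.1 to 97.3, 40 UMIs in 15 of 33 cells), and CAF-like, Col3a1-high and Arg1-state cells could not be told apart.

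The mix of the ligands differed between groups. Tgfb3 made up 54.4% of ligand UMIs in Col3a1-high cells (51.5 to 57.3%, of 1200) and 23.3% in Col3a1-low cells (22.2 to 24.5%, of 4935). It was 25.1% in the Arg1 state (20.4 to 30.2%) and 12.0% in the Cxcl9 state (7.79 to 17.5%). In monocyte-like cells it was 7.29%, in T and NK-like cells 2.78% (0.762 to 6.96%, of 144) and in CAF-like cells 38.8% (29.4 to 48.9%). Tgfb3 UMIs outnumbered those of Tgfb1 in Col3a1-high tumor-like cells, and also in the CAF-like cells without an Rgs5 UMI, at 23 against 12. Within the Col3a1-high cells the excess lay in the shallower cells, with 234 Tgfb3 and 98 Tgfb1 UMIs. The deeper cells had 419 and 426. Tgfb3 overlaps Ttll5 on the opposite strand at its 3′ end, and the share of reads this could move was not tested.

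**Figure D2:**
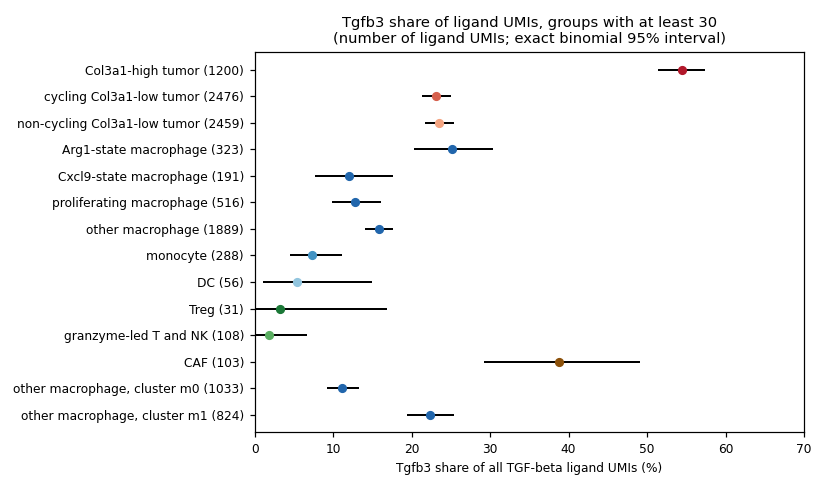
Tgfb3 as a percentage of all Tgfb1, Tgfb2 and Tgfb3 UMIs, for groups with at least 30 ligand UMIs and for both main subclusters of the other macrophage-like cells. Dots are shares, lines are exact binomial 95% intervals and the number of ligand UMIs stands beside each name. Col3a1-high tumor-like cells lie at 54.4% and T and NK-like cells at 2.78%.

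Tgfb2, the ligand without the integrin motif, was rare, with 76 UMIs in 52 of all kept cells. Tumor-like cells had 55 UMIs (0.72 CPM, 0.54 to 0.94), myeloid-like cells had 3 and T and NK-like cells had 0, where 3 counts would be 3.74 CPM. CAF-like cells stood highest with 25.01 CPM (13.7 to 42.0, 14 UMIs in 7 cells), but 8 of the 14 came from 1 cell and the level was 11.1 CPM without it. Within the tumor-like cells Tgfb2 was 2.20 CPM (23 UMIs in 10 cells, 9 of them in 1) in Col3a1-high and 0.48 CPM (31 UMIs) in Col3a1-low cells, a ratio of 4.57 (2.55 to 8.10). Without the cell of 9 UMIs the Col3a1-high level was 1.34 CPM. Tgfb2 was also lower in cycling than in non-cycling Col3a1-low cells, at 0.324 (0.125 to 0.751) on 8 and 23 UMIs. It was the 1 of the 9 genes called lower in that comparison (1.16% of all tested) and none was called higher (3.93%).

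The latent binding proteins were mostly carried by tumor-like and stromal cells. Ltbp1, Ltbp3 and Ltbp4 had 94.4%, 82.97% and 90.6% of their UMIs in tumor-like cells, where all genes together had 80.1%, while Ltbp2 had 80.1% in CAF-like cells, which held 0.589% of the UMIs of all genes. Tumor-like cells exceeded myeloid-like cells at least 2-fold for 5 of the 9 genes (Tgfb2, Ltbp1, Ltbp4, Lrrc32 and Itgb8), a call that 27.1% of all tested genes received. The median log2 ratio was 1.96 over the 9 genes and 0.23 over all tested genes.

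Ltbp1, the main tether of latent TGF-β to fibronectin, was 25.9 CPM (24.8 to 27.1) in tumor-like cells, whereas myeloid-like cells had 2.23 CPM (1.56 to 3.09, 36 UMIs), a ratio of 11.6 (8.36 to 16.6). The tumor-RNA amount of 1.83 CPM lay within the myeloid interval, so the myeloid value cannot be told from background. Ltbp1 was the 1 gene of 5 tested that was called lower in monocyte-like than in macrophage-like cells (11.4% of all tested, none higher against 3.11%), but on 1 and 27 UMIs (ratio 0.443, 0.0108 to 2.69) and with both values at background.

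The highest Ltbp1 level was that of CAF-like cells, 57.2 CPM (39.1 to 80.7, 32 UMIs), which could not be told apart from the Col3a1-high cells (ratio 1.41, 0.954 to 2.02). Among tumor-like cells Ltbp1 also varied between the Col3a1-low clusters. It was 40.5 CPM (36.7 to 44.5) in Col3a1-high, 26.9 CPM in cycling and 19.7 CPM in non-cycling cells, and the intervals of both steps left out 1. The non-cycling cells hid a split: 256 cells of 1 subcluster held 30.6 CPM, and the other subclusters 11.1 and 11.5 CPM, a ratio of 2.73 (2.30 to 3.26). Ltbp1 was the 1 gene called higher in that subcluster (4.74% of all tested), and Lrrc32 the 1 called lower (3.61%). The Col3a1-high to Col3a1-low ratio of Ltbp1, 1.73 (1.55 to 1.93), ranged from 1.06 to 3.22 over the other settings, the high end coming from cells of 20000 to 40000 UMIs.

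Ltbp2, which binds fibrillin microfibrils and not the latent cytokine, was nearly limited to CAF-like cells at this depth. It had 245 CPM (205 to 289, 137 UMIs in 12 of 33 cells) there, 0.32 CPM (24 UMIs) in tumor-like and 5 UMIs in myeloid-like cells. The ratio of CAF-like to tumor-like cells was 776 (501 to 1253). A single cell gave 50 of the 137 UMIs, and the CAF-like level was 158 CPM without it. CAF-like cells without Rgs5 held 327 CPM (122 UMIs in 11 of 26 cells) and those with it 80.4 CPM, all 15 UMIs of which lay in 1 of 7 cells.

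Ltbp3, a partner needed for TGF-β storage in bone and other tissues, was highest in CAF-like cells too, with 146 CPM (117 to 182) spread over 24 of 33 cells. Col3a1-high tumor-like cells had 63.9 CPM (59.1 to 68.9) and Col3a1-low cells 20.8 CPM, a ratio of 3.07 (2.80 to 3.38) that was 2.59 (2.17 to 3.09) among cells of 20000 to 40000 UMIs. Ltbp3 was also the LTBP with the clearest signal in leukocytes. Myeloid-like cells had 15.8 CPM (13.9 to 17.9, 255 UMIs) against a tumor-RNA amount of 1.91 CPM, and T and NK-like cells had 12.5 CPM (5.99 to 23.0, 10 UMIs) against 2.54 CPM.

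Ltbp4, an LTBP of elastic fibers, was led by endothelial-like cells with 541 CPM (398 to 720), but on 47 UMIs in 8 of 26 cells. A single cell gave 22 of them, and without it the level was 338 CPM. CAF-like cells had 78.6 CPM and Col3a1-high tumor-like cells 74.0 CPM (68.9 to 79.4), which did not differ beyond their intervals, and Col3a1-low cells had 33.6 CPM. The Col3a1-high to Col3a1-low ratio was 2.20 (2.03 to 2.39), and 1.82 (1.55 to 2.13) among cells of 20000 to 40000 UMIs. Myeloid-like cells had 6.57 CPM (5.38 to 7.95) with a tumor-RNA amount of 2.78 CPM.

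Set against the ligands, LTBP transcripts were plentiful in tumor-like and stromal cells and scarce in leukocytes. There were 1.56 LTBP UMIs per ligand UMI in Col3a1-high cells and 1.02 in Col3a1-low cells, and 0.117 in myeloid-like, 0.059 in monocyte-like and 0.125 in T and NK-like cells. CAF-like cells had 2.86 and endothelial-like cells 2.94, the latter on 50 and 17 UMIs. Ltbp2, which does not bind the latent cytokine, made up 46.4% of the CAF-like LTBP UMIs and 0.16% of those in Col3a1-high cells. The CAF-like value therefore does not count carriers of the ligands alone. Monocyte-like cells, with a summed ligand level of 249 CPM, had 17 LTBP UMIs in all. Between tumor-like subclusters the value ran from 0.53 to 1.56.

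**Figure D3:**
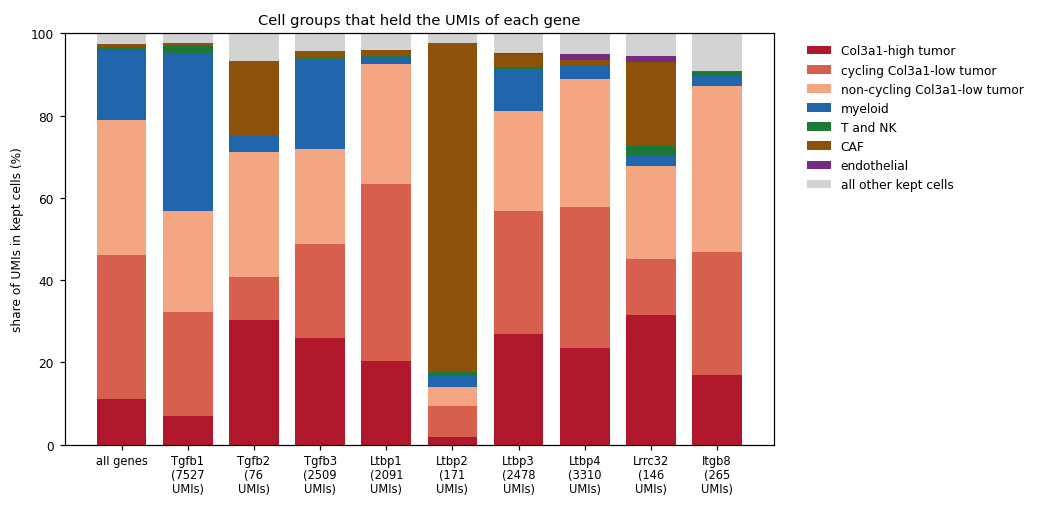
Share of the UMIs of each gene that each cell group held, in percent of the gene's UMIs over all kept cells, beside the same for all genes together. Numbers under the names are UMIs. Shades of red are the tumor-like groups, without the 37 cells that carried myeloid genes. The Ltbp2 bar is mostly brown (CAF-like, 80.1%), and the blue myeloid-like share is widest for Tgfb1 (38.2%).

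Lrrc32, the cell-surface anchor of latent TGF-β, had 146 UMIs in 93 cells. It was highest in CAF-like cells with 53.6 CPM (36.2 to 76.5, 30 UMIs in 13 cells), 40.8-fold above tumor-like cells (26.2 to 61.9). The Col3a1-high tumor-like cells had 4.39 CPM (46 UMIs in 25 cells) and the Col3a1-low cells 0.82 CPM (53 UMIs), a ratio of 5.35 (3.52 to 8.09). Among cells of 20000 to 40000 UMIs that ratio was 1.15 (0.317 to 3.50) on 5 and 12 UMIs, too few to tell whether a difference remained at like depth. In T and NK-like cells all 3 UMIs lay in Treg-like cells (19.2 CPM, 3.97 to 56.2), and the granzyme-led cells had 0, where 3 counts would be 5.17 CPM. Of these 3 UMIs 2 lay in the 19 cells with a UMI of Foxp3, the regulatory T cell factor. Lymphoid counts were too few to order the groups.

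Itgb8, the β chain of the activating integrin αvβ8, was found mainly in tumor-like cells. They had 235 of 265 UMIs (88.7%, 84.2 to 92.2%), where all genes together had 80.1%, at 3.09 CPM (2.70 to 3.51). Myeloid-like cells had 7 UMIs (2.64%, against 17.0% for all genes), a tumor-like to myeloid-like ratio of 7.11 (3.40 to 17.9). After thinning to 1000 UMIs, which left few Itgb8 and Lrrc32 UMIs, the tumor-like to myeloid-like ratios were 1.78 for Itgb8 and 1.70 for Lrrc32 (5.30 as deposited, 2.01 to 19.8). Treg-like cells had 2 UMIs, granzyme-led, endothelial-like, Arg1-state and Cxcl9-state cells had 0, and CAF-like cells had 1. Non-cycling Col3a1-low cells had 3.44 CPM and cycling ones 2.36 CPM, a ratio of 0.688 for cycling to non-cycling (0.508 to 0.929). The Col3a1-high level of 4.30 CPM was 1.49 times the Col3a1-low level (1.05 to 2.07), and 1.01 times (0.508 to 1.92) among cells of 20000 to 40000 UMIs.

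Over the 9 genes, Col3a1-high cells exceeded Col3a1-low cells at least 2-fold for 5 (Tgfb2, Tgfb3, Ltbp3, Ltbp4 and Lrrc32), which 10.4% of all tested genes did, and fell below for none (5.45%). The median log2 ratio was 1.14 over the 9 genes and 0.17 over all tested genes. Among cells of 20000 to 40000 UMIs 3 genes passed (Tgfb3, Ltbp1 and Ltbp3; 7.31% of all tested) and none was lower (4.26%). Of the 5 genes above, Ltbp4 was then at 1.82. Lrrc32 (1.15, on 5 and 12 UMIs) and Tgfb2 (7.71, 2.63 to 27.4, on 14 and 5 UMIs) had under 20 UMIs and could not be called. Of all 23 Col3a1-high Tgfb2 UMIs, 9 lay in 1 cell. Since Col3a1 chose these clusters, a collagen-rich state was built into the split, but none of the 9 genes was used to cluster the cells.

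**Figure D4:**
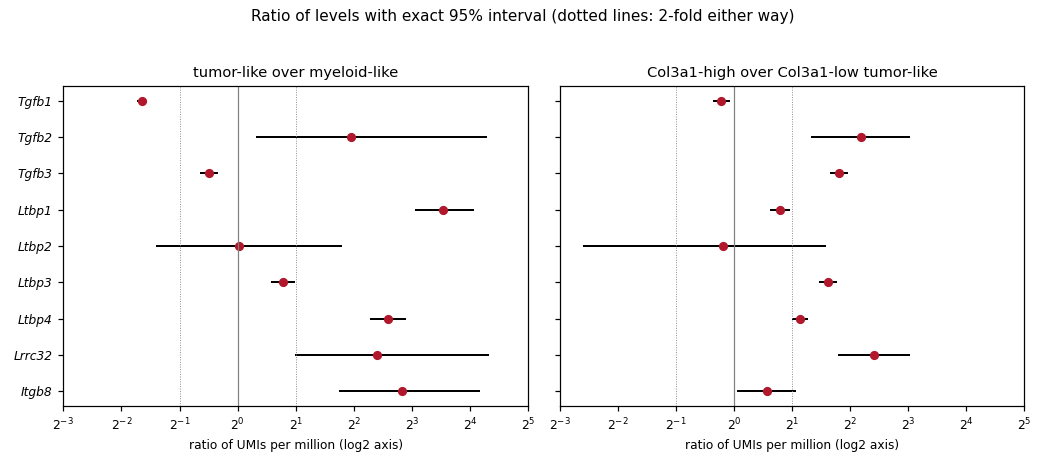
Ratio of CPM for each gene between tumor-like and myeloid-like cells (left) and between Col3a1-high and Col3a1-low tumor-like cells (right), on a log2 axis. Dots are ratios, lines exact 95% counting intervals, and dotted lines mark 2-fold either way. Tgfb1 lies at 0.321 on the left and 0.861 on the right, and Tgfb3 at 0.712 and 3.49.

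CAF-like cells exceeded tumor-like cells at least 2-fold for 6 of the 9 genes (Tgfb2, Tgfb3, Ltbp1, Ltbp2, Ltbp3 and Lrrc32), a call 22.4% of tested genes received, and were lower for none (8.18%). Against the Col3a1-high cells alone the count was 4 (Tgfb2, Ltbp2, Ltbp3 and Lrrc32; 16.1% of tested genes), with Itgb8 lower (10.2%) on 1 CAF-like UMI. The tumor-RNA amounts in CAF-like cells were 0.065 to 11.9 CPM for the 9 genes. Endothelial-like cells exceeded tumor-like cells for 3 (Tgfb1, Ltbp4 and Lrrc32; 26.3%), Lrrc32 on 2 UMIs, and none was lower (8.9%). Against CAF-like cells, endothelial-like cells were higher for 1 of 7 tested genes (Ltbp4; 16.1% of all tested) and lower for 4 (Tgfb3, Ltbp2, Ltbp3 and Lrrc32; 19.9%). With 33 and 26 cells, these groups held few UMIs and single cells weighed heavily.

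The rest of the pathway was read from 3 lists chosen by function. Of the list for latency and activation, 9 of 11 genes could be tested between tumor-like and myeloid-like cells, with 1 higher (27.1% of all tested genes) and 4 lower (21.7%). Nrros, the myeloid anchor of latent TGF-β, stood at 80.4 CPM in myeloid-like cells against 0.74 CPM in tumor-like cells. Its level was 40.5 CPM in Arg1-state and 99.4 CPM in Cxcl9-state macrophages (ratio 0.408, 0.287 to 0.574). Furin was 21.9 CPM in tumor-like and 75.4 CPM in myeloid-like cells. It was 166 CPM in the Arg1 state against 66.0 CPM in the Cxcl9 state. Of the 8 genes of this list tested between these states, Furin and Thbs1 were called higher (6.36% of all tested) and Nrros lower (17%). Tgfb3 was also higher in the Arg1 state, but under 2-fold in several settings. The calls for Furin, Thbs1 and Nrros were not recomputed under those settings.

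The activators were spread over compartments. Thbs1, a matrix protein that can release TGF-β from latency, was 2.98 CPM in tumor-like, 114 CPM in myeloid-like and 566 CPM in CAF-like cells. Mmp9, a protease that can do the same, was 91.5 CPM in tumor-like and 13.4 CPM in myeloid-like cells. The αv chain Itgav, the partner of Itgb8, was even between tumor-like and myeloid-like cells (44.0 and 45.6 CPM) and was 120 CPM in T and NK-like cells, with 276 CPM in Treg-like and 74.1 CPM in granzyme-led cells (ratio 3.72, 2.38 to 5.81). Itgb3, another partner of Itgav, was 83.4 CPM in Treg-like cells (13 UMIs) and 20.7 CPM in granzyme-led cells (12 UMIs). Itgb6, of the epithelial integrin αvβ6, had 2 UMIs in all tumor-like cells.

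In the list for matrix anchoring, 8 of 9 genes could be tested and 5 were higher in tumor-like than in myeloid-like cells (Fbn1, Fbn2, Dcn, Bgn and Fbln5), against 27.1% of all tested genes. Between Col3a1-high and Col3a1-low cells 6 of 8 were higher, against 10.4%. Fibronectin (Fn1) was 2001 against 395 CPM, a ratio of 5.06 (4.97 to 5.16), and fibrillin (Fbn1) was 330 against 143 CPM. The list's median log2 ratio there was 1.54, and that of all tested genes 0.17. The Col3a1-high cells, with more Ltbp3 and Ltbp4, thus also had more transcripts of the matrix proteins to which LTBPs attach. Since Col3a1, itself a matrix gene, chose these clusters, a matrix-rich state was built into the split. The pathway lists were also not compared among cells of like depth. CAF-like cells were higher than tumor-like cells for 8 of 9 genes of this list and for 7 of 10 of the list for latency and activation, where 22.4% of all tested genes were.

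The receptors ran the other way between tumor and myeloid cells. Of 4 genes 3 were lower in tumor-like cells (21.7% of all tested), among them Tgfbr1 with 4.12 against 93.5 CPM and Tgfbr2 with 29.1 against 76.0 CPM, and the coreceptor Tgfbr3 was higher (22.9 against 2.60 CPM), as 27.1% of all tested genes were. Tgfbr2 and Tgfbr3 were higher in Col3a1-high than in Col3a1-low cells, a call 10.4% of all tested genes received, and Tgfbr2 was 64.5 against 23.3 CPM. All 4 were higher in CAF-like than in tumor-like cells (22.4% of all tested). Endoglin (Eng), an endothelial coreceptor, was 991 CPM in endothelial-like cells.

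Because the study concerns Atp6v0a1 and TGF-β1 in tumor cells, tumor-like cells with an Atp6v0a1 UMI were set beside those without. Atp6v0a1 was 7.74 CPM (589 UMIs in 471 of 1741 cells) in tumor-like and 15.1 CPM in myeloid-like cells. Tgfb1 was 59.0 CPM in cells with and 56.4 CPM in cells without it, a ratio of 1.05 (0.983 to 1.11), where the cells with a UMI were deeper (medians 52304 and 35855). After thinning to 5000 UMIs the ratio was 1.32 (0.835 to 1.99) on 65 and 1577 cells, with 99 left out. Neither interval left out 1, and a cell without an Atp6v0a1 UMI may still have held the transcript.

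Ltbp1, Ltbp3 and Ltbp4 were lower in the cells with an Atp6v0a1 UMI as deposited, at 0.794 (0.719 to 0.876), 0.843 (0.766 to 0.927) and 0.825 (0.762 to 0.893). After thinning they were 1.18 (0.559 to 2.22), 1.19 (0.643 to 2.03) and 1.26 (0.763 to 1.98) on 10, 14 and 20 UMIs in the cells with Atp6v0a1, intervals that held both 1 and the deposited ratios. Within each tumor-like group the same held for Tgfb1 as over all, with ratios of 1.10 in Col3a1-high, 1.07 in cycling and 1.01 in non-cycling cells as deposited, none with an interval that left out 1.

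Genes whose levels ran most like those of each gene over 13 groups of at least 30 cells were listed by Pearson's r of log2(CPM + 10). The list is a description, since the groups come from 1 library and differ in depth. These groups include the granulocyte-like cells and leave out the endothelial-like cells, where Ltbp4 was highest. For Tgfb1 they were Fam173a (0.95), Mapkapk3 (0.95) and Lpxn (0.94), and for Tgfb3 they were Abcd3 (0.94), Fam102b (0.92) and Scamp1 (0.91). For Ltbp1 they were Fermt2 (0.99), Tcim (0.99) and Yap1 (0.98), and for Ltbp4 Ptk2, Tcim and Wwc2 (0.97, 0.97 and 0.96). The list for Ltbp3 was C1ra, Mmp2 and Ptgfrn (0.97, 0.96 and 0.95). That for Ltbp2 was Efemp1, Sfrp1 and Ccn2, each above 0.99, where 80.1% of the Ltbp2 UMIs lay in a single group. For Lrrc32 it was Rasl11a, Cpt1c and Kif26b (0.97 each), and for Itgb8 B230322F03Rik, Ppp1r14c and Ston1 (0.97, 0.96 and 0.95). Tgfb2 had too few UMIs to be included.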

How the data were processed

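Cells of 5 MC38 tumors were pooled into 1 library (10x Genomics, 3′ kit v3.1). The authors deposited UMI counts per gene and cell, made with Cell Ranger against GRCm38/mm10 (the file header names 5.0.1, the methods CellRanger V3), with no normalization. The library is labelled WT and was taken as the control pool. Cells with over 20% mitochondrial UMIs (667) and 197 simulated-neighbour doublets (4.25%) were removed, and none had under 200 genes. Cells were scaled to 10000 UMIs and clustered by Leiden at resolution 0.5 on 2000 variable genes, 30 components and 20 neighbours, leaving out 33 genes (the 9 and the pathway lists). Thresholds for naming clusters were set after the clusters were seen, and the genes and lists were chosen with earlier results of these data known. A gene was called when its CPM differed at least 2-fold on 20 or more UMIs over both groups, with a count of 0 set to 3. Ratios have exact conditional binomial intervals. In Poisson counts simulated at the totals of the tumor-like and myeloid-like groups, 200 of 13735 genes were changed 4-fold. Of these 98.5% were recovered, 1.99% of unchanged genes were called and 95.4% of intervals held the true fold. The simulation used the counting model of the intervals and had no spread between cells. It therefore checks the computation only, not the intervals of groups where single cells held many UMIs. Named genes were the 9, Atp6v0a1, marker genes, 3 pathway lists and the 3 genes most alike in pattern. Python 3.11.15, scipy 1.17.1, scikit-learn 1.9.0 and leidenalg 0.10.2 were used.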

Additional observations from a re-analysis of the deposited data

How the results depend on the processing

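No paired analysis was possible because the series has 1 library and no replicates. Of 354 values recomputed under other settings, 264 stayed close to the reported value, 88 moved away and 2 changed direction. Both changes were for the Tgfb1 ratio of Col3a1-high to Col3a1-low cells (1.04 with another seed and 1.21 after thinning to 1000 UMIs). For ratios, shares and levels, close means inside the interval of the reported value. Counts of called genes have no interval and were judged by their nearness to the reported count. A change of direction was counted only where the reported interval left out 1. Other ratios could also cross 1, as for Ltbp2 between Col3a1-high and Col3a1-low cells (0.43 to 1.27). The cause of the moves was not tested. The Tgfb3 ratio of Col3a1-high to Col3a1-low cells stayed above 2.6: it was 3.11 with at most 10% mitochondrial UMIs, 2.92 with no such limit, 2.73 with at least 500 genes per cell, 2.72 with doublets kept, 2.84 with 3000 variable genes, 2.75 with 20 components, 2.65 with another seed, 4.06 with the pathway genes among the variable genes and 4.09 after thinning. The number of the 9 genes called lower in that comparison was 1 with no mitochondrial limit and with 20 components, and the number called higher was 3 among cells of 20000 to 40000 UMIs, a setting chosen after seeing the data.

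For Arg1-state against Cxcl9-state cells the Tgfb3 ratio was 1.59 with at most 10% mitochondrial UMIs, and the number of genes called higher was 0 there, with no mitochondrial limit, with 3000 variable genes and after thinning. No Cxcl9-state group was found with at least 500 genes per cell. The tumor-like to myeloid-like ratio of Tgfb1 was 0.254 and the number of genes called higher 3 after thinning. The share of Tgfb1 UMIs in tumor-like cells was 51.2% with at most 10% mitochondrial UMIs, 59.1% with at least 500 genes and 59.1% with doublets kept. The Tgfb1 ratio of cells with to cells without an Atp6v0a1 UMI was 1.32 after thinning. Without the cell that held the most UMIs, Tgfb2 was 11.1 CPM and Ltbp2 158 CPM in CAF-like and Ltbp4 338 CPM in endothelial-like cells. Depth limited Tgfb2, Lrrc32 and Itgb8, which had 76, 146 and 265 UMIs in all.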
